A study of Mus musculus with 4 samples.

Results

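The genes described here are 10 regulators, receptors and effector cytokines of T helper 2 cells: Gata3, Stat6, Nfil3, Il4ra, Il1rl1, Il17rb, Ptgdr2, Il5, Il13 and Il9. They were chosen by name, with earlier results of these data known. Each was read from the probe set that the array annotation gives to that single symbol. Of the 10 genes, 9 had such a probe set, 1 each, among 19938 genes with a value. Il1rl1 had none and has no value here. Expression was measured on 4 single-channel Affymetrix arrays, 2 in each of 2 groups, all of RNA from spleens of C57BL/6 mice. The wild type group was CD4+ splenocytes of wild type control mice. The lymphoma group was CD4+ lymphoma cells of mice in which both copies of Tet2, an enzyme that oxidises methylated cytosine in DNA, carry a gene trap, a cassette inserted into the gene. In both groups red cells were lysed and CD4+ cells were collected on magnetic columns. The labels used here give no age. Genotype and tumour differ together between the groups and cannot be told apart. The labels number the samples without naming animals, so p-values measure the spread between these samples.

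T helper 2 cells are CD4+ T cells that direct immunity to worms and allergic inflammation. Interleukin 4 binds a receptor that contains the Il4ra chain, which activates the signal transducer Stat6, which in turn induces Gata3, the factor that opens the cytokine locus holding Il4, Il5 and Il13. Such cells also carry receptors for alarm signals from epithelium (Il1rl1 for interleukin 33, Il17rb for interleukin 25) and for prostaglandin D2 (Ptgdr2). In the spleen the same receptors can be carried by other cells, since Il4ra is made by B cells and macrophages and Ptgdr2 by eosinophils and basophils. RNA was taken from bulk cells, in which fewer cells of a type and less RNA per cell cannot be told apart.

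The arrays had similar overall signal, with median intensities over all probe sets between 130 and 142. Log2 values correlated at 0.98 across probe sets between the wild type arrays and at 0.97 between the lymphoma arrays. Tet2 had log2 intensities of 9.94 and 9.99 in wild type and 9.22 and 8.64 in lymphoma, a difference of -1.03 (SE 0.24, adjusted p = 0.077 in limma). Where the trap lies relative to that probe set is unknown here. Of 11 T cell markers 9 were measured, with summed intensities of 30239 and 28601 in wild type and 31745 and 31968 in lymphoma. Of the 9 differences 5 were positive and 4 negative. Thy1 was lower, by -1.56 on the log2 scale (adjusted p = 0.023 in limma). Cd4 itself, the marker used to collect the cells, had 4552 and 5153 in wild type and 5839 and 7134 in lymphoma. A gene was called where limma's two-sided test, with Benjamini-Hochberg adjustment over all 19938 genes, gave an adjusted p under 0.05. Over all genes 4.27% were called, 1.82% as higher and 2.46% as lower in lymphoma. In 44.1% of genes both lymphoma arrays lay above or below both wild type arrays, so the lack of overlap between groups of 2 arrays was common.

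Of the 9 measured genes, 1 was called lower in lymphoma (Il4ra, 11.1% of the 9 against 2.46% of all genes), none was called higher, and 8 were not called. At an unadjusted p under 0.05 there were 3 of the 9, Il4ra, Nfil3 and Il17rb, and 3119 of all 19938 genes. The median log2 difference of the 9 genes was -0.05, and that of all genes was -0.04. The groups did not overlap for 5 of the 9 genes, or 55.6% against 44.1% of all genes. By role, the differences of the 3 measured receptors were all negative, those of the 3 regulators were all positive, and those of the 3 cytokines were near 0 with overlapping groups.

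**Figure D1:**
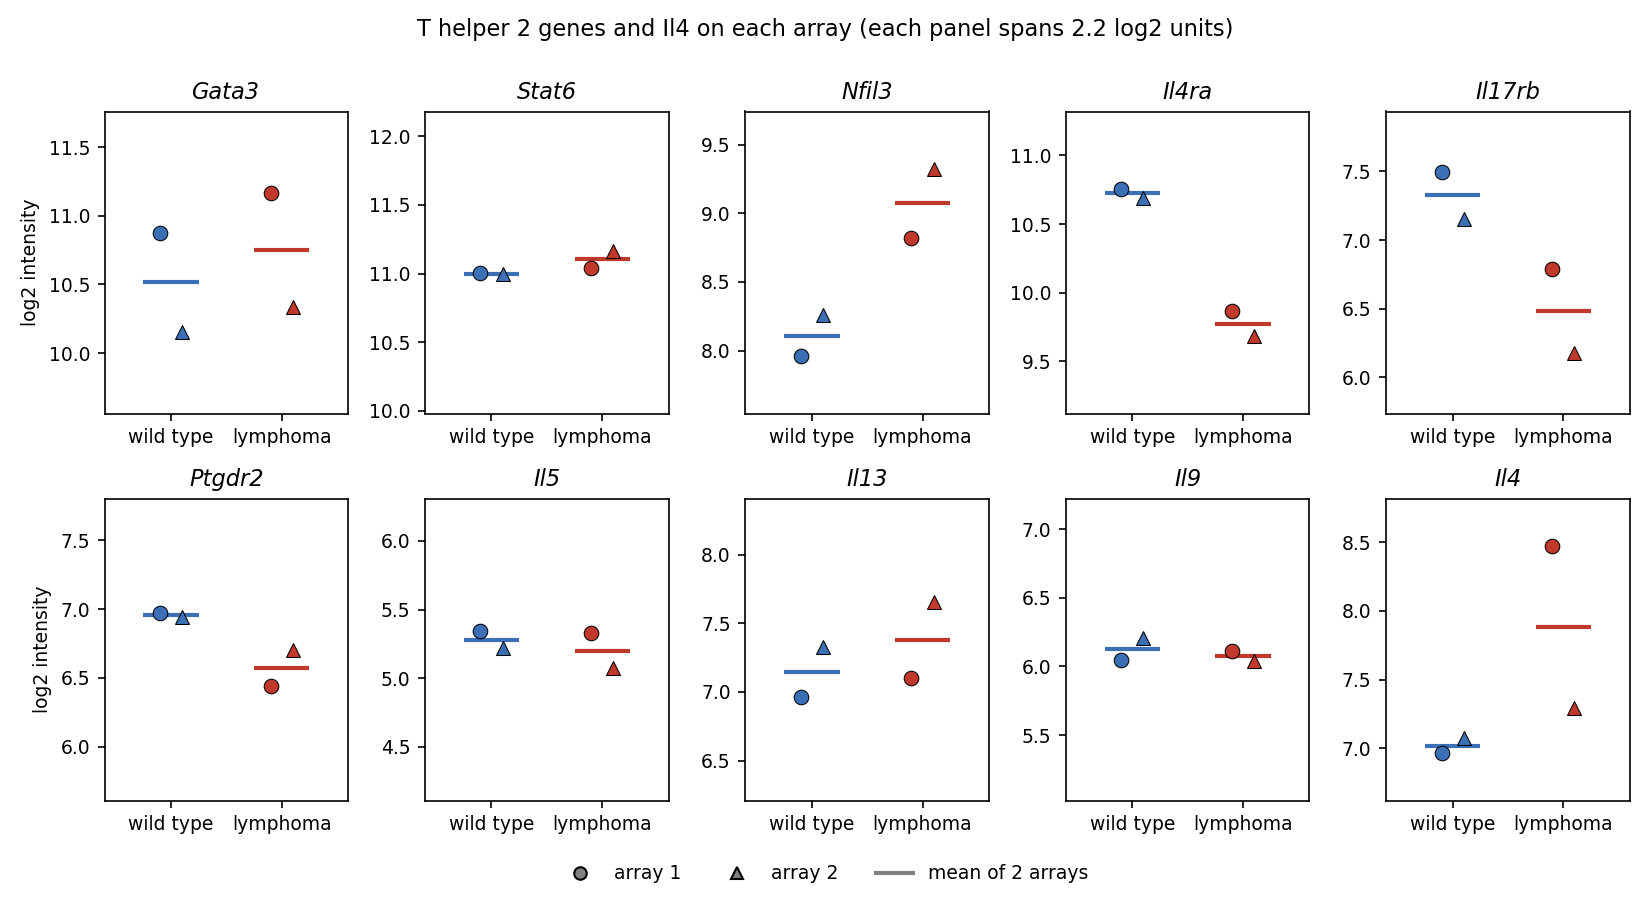
Log2 intensity of the 9 measured T helper 2 genes and of Il4 on each array, with circles for array 1 and triangles for array 2 of each group and a line at the mean of 2 arrays. Each panel spans the same number of log2 units, so distances can be compared between panels. The wild type and lymphoma points of Il4ra lie apart and close within each group, those of Gata3 interleave, and Il4 has 1 high lymphoma array.

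The sequences before the start sites of Il4ra, the called gene, and of the cytokines Il13 and Il9 are shown because they carry, or lack, the short motifs of the factors in this set. Each is the 250 bases before the RefSeq start site in build GRCm38.p6, written 5′ to 3′ in the direction of the gene, with motif matches in capitals. The Il4ra window lies at chr7:125552021-125552270 on the plus strand, the Il13 window at chr11:53634703-53634952 on the minus strand, and the Il9 window at chr13:56482258-56482507 on the minus strand.
Il4ra: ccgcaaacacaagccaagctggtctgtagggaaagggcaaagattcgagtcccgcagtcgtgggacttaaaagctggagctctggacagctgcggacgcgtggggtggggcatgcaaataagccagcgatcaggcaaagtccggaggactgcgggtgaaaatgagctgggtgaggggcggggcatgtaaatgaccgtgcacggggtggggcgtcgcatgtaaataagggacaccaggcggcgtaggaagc
Il13: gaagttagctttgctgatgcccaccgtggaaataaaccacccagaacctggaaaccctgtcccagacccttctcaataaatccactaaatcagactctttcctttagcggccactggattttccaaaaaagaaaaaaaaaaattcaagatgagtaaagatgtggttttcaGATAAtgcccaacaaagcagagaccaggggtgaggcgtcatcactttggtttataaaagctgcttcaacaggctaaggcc
Il9: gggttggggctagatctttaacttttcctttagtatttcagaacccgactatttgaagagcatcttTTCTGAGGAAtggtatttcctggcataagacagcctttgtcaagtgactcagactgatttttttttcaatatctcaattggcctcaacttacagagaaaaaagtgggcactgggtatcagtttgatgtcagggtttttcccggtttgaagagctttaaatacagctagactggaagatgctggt
Motifs were searched on both strands as TTC, any 4 bases and GAA for STAT6, as GATAA for GATA factors, and as TTA, any 2 bases and TAA for NFIL3. They were found in 5.85%, 22.6% and 5.43% of 32851 RefSeq windows of the same length. All 10 genes had a window (11 windows, since Il1rl1 has 2 start sites). The STAT6 motif was in the window of 1 gene, Il9, at 184 to 175 bases before the start, spelled TTCTGAGGAA. The GATA motif was in the windows of 2 genes, Il13, at 80 to 76 bases before the start, and Il1rl1. The NFIL3 motif was in 0 of the 10, no 2 matches overlapped, and the Il4ra window held none of the motifs. A match is a run of letters and not a measured binding site.

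Among the receptors, Il4ra, the chain shared by the receptors for interleukin 4 and interleukin 13, was lower in lymphoma. It had intensities of 1727 and 1655 in wild type and of 933 and 824 in lymphoma. Both lymphoma arrays lay below both wild type arrays, and each pair differed little within its group. The log2 difference was -0.95 (SE 0.17, 95% confidence interval -1.37 to -0.53), or 1.93-fold lower, at an adjusted p of 0.0378 in limma. The call was lost when all probe sets were tested (adjusted p = 0.084) and when wild type array 1 (-0.92, 0.267) or wild type array 2 (-0.98, 0.239) was left out, a fit in which no gene of the array was called. It held without lymphoma array 1 (-1.04, adjusted p = 0.00912) and without lymphoma array 2 (-0.86, 0.0312).

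Most markers of B cells, macrophages and dendritic cells were also lower in lymphoma. Other lists were mixed. Differences were positive for 7 of 9 neutrophil markers (median 0.15, 1 called higher) and for 3 of 5 erythroid markers (median 0.10, none called). Over all genes 8741 of 19938 differences were positive. All 13 mast cell and basophil markers (1 called lower) and 2 of 2 CD8 genes (none called) had negative differences. Of 12 B cell markers 11 were measured and 10 were called lower (90.9% against 2.46% of all genes). All 11 lay lower in lymphoma, among them the complement receptor Cr2 (-4.39) and the IgE receptor Fcer2a (-4.37). Their summed intensity was 24745 and 16114 in wild type and 3445 and 2970 in lymphoma. Of 12 macrophage and monocyte markers 8 were called lower (66.7%), led by Adgre1 (-3.22) and Csf1r (-2.51). The sums were 11913 and 11867 in wild type and 3325 and 4681 in lymphoma. Of 11 dendritic cell markers 7 were called lower (63.6%), led by Cd209a (-4.40) and Flt3 (-3.19). The sums were 7863 and 5429 in wild type and 1437 and 1422 in lymphoma. The part of B cells, macrophages and dendritic cells in the lower Il4ra signal was not tested.

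Il17rb, which pairs with Il17ra to bind interleukin 25, had intensities of 181 and 143 in wild type and of 110 and 72.2 in lymphoma. The lymphoma arrays were again below both wild type arrays, with lymphoma array 2 the lowest. It differed by -0.84 on the log2 scale (SE 0.26, 95% confidence interval -1.47 to -0.22, 1.80-fold), and it was not called (adjusted p = 0.163 in limma). The value depended on the lymphoma array: it was -1.15 (adjusted p = 0.00645, a call) without lymphoma array 1 and -0.54 (0.296) without lymphoma array 2.

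Ptgdr2, a G protein coupled receptor for prostaglandin D2 that marks T helper 2 cells, eosinophils and basophils, had 126 and 123 in wild type and 86.7 and 104 in lymphoma. Here too the lymphoma values were the lower pair, and array 1 was the lowest. The log2 difference of -0.39 (SE 0.18, 95% confidence interval -0.82 to 0.05) was not called (adjusted p = 0.384 in limma), and its interval reached past 0. Without lymphoma array 1 it was -0.25. Among 13 mast cell and basophil markers all 13 differences were negative, with a median of -0.18. Kit, a growth factor receptor of mast cells and progenitors, was called lower (-2.25, from 627 and 512 to 108 and 131). The other 12 were not called (7.69% called lower against 2.46% of all genes). The defining basophil gene Mcpt8 had 43.9 and 55.5 in wild type and 43.6 and 40.1 in lymphoma, and the mast cell protease Cpa3 29.5 and 32.2 against 25.1 and 24.5.

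Among the regulators, Nfil3, a basic leucine zipper factor that can repress transcription and shapes cytokine production in T helper cells, had the highest difference. It had intensities of 249 and 306 in wild type and of 453 and 641 in lymphoma. Both lymphoma arrays lay above both wild type arrays, array 2 most. This was a log2 difference of 0.96 (SE 0.24, 95% confidence interval 0.39 to 1.54, 1.95-fold), with an adjusted p of 0.0945 in limma, so it was not called. It was 1.21 (adjusted p = 0.00467, a call) without lymphoma array 1 and 0.71 (0.115) without lymphoma array 2.

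Gata3, the zinc finger factor that sets the T helper 2 program and is also needed by CD4+ T cells at large, had 1880 and 1141 in wild type and 2292 and 1296 in lymphoma. The groups overlapped, since array 1 was higher than array 2 in each. The log2 difference was 0.23 (SE 0.35, 95% confidence interval -0.61 to 1.08, adjusted p = 0.86 in limma). This interval is wide, and it includes changes of 2-fold upward. Leaving out 1 array moved the value between -0.18 and 0.65.

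Stat6, the signal transducer downstream of Il4ra, had 2056 and 2040 in wild type and 2111 and 2299 in lymphoma. The lymphoma values were both higher, by little. Stat6 had a log2 difference of 0.11 (SE 0.16, 95% confidence interval -0.28 to 0.49, adjusted p = 0.861 in limma), an interval that leaves out the size of the Il4ra difference in either direction.

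**Figure D2:**
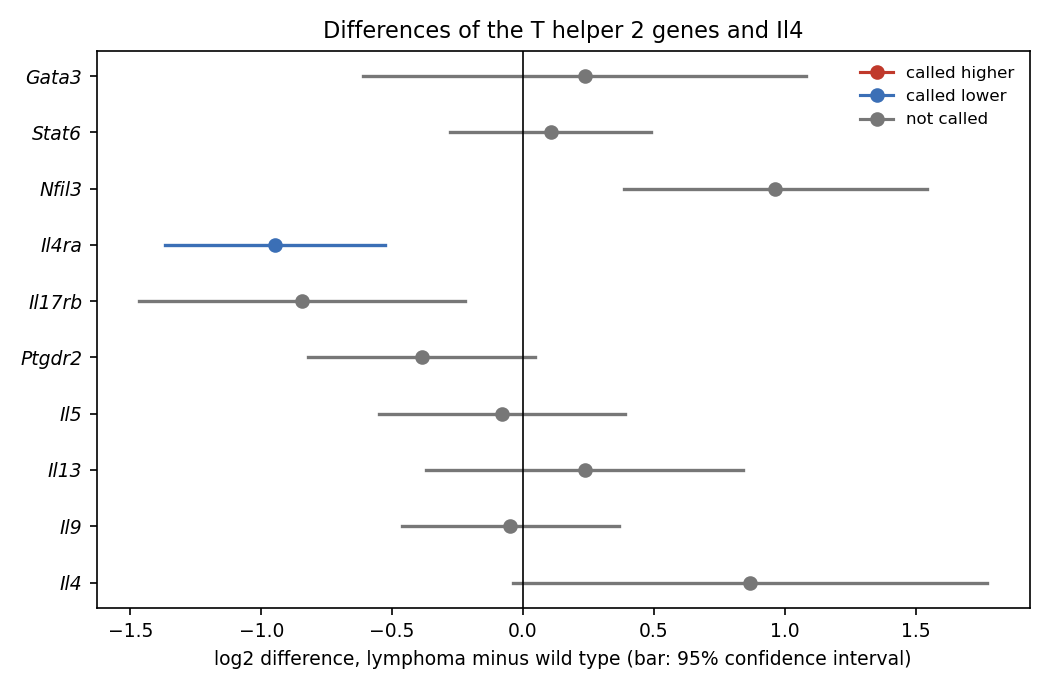
Log2 difference, lymphoma minus wild type, of the 9 measured genes and Il4, with 95% confidence intervals from limma as bars and the line at 0. Il4ra, at -0.95, is the called gene, and the intervals of Nfil3 and Il17rb also miss 0 although their adjusted p-values do not pass.

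The 3 cytokines showed no difference beyond the spread of the arrays. Il5, which drives eosinophil growth, had 40.6 and 37.3 in wild type and 40.2 and 33.7 in lymphoma. Il13, which acts on epithelium and smooth muscle, had 124 and 161 in wild type and 137 and 202 in lymphoma. Il9, a growth factor for mast cells, had 66.0 and 73.7 in wild type and 69.0 and 65.9 in lymphoma. In each the groups overlapped. The log2 difference was -0.08 for Il5 (95% confidence interval -0.55 to 0.39, adjusted p = 0.922 in limma). It was 0.24 for Il13 (-0.37 to 0.84, 0.787) and -0.05 for Il9 (-0.46 to 0.37, 0.95). The intervals thus leave out a rise or fall of 2-fold in these libraries, for each of the 3 probe sets. No detection calls were used here, so whether these probe sets measured signal above background is unknown, and a change from an undetected level could be understated.

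Il4, which lies beside Il13 in the genome and is not one of the 10 genes, had 125 and 135 in wild type and 356 and 157 in lymphoma. Both lymphoma values were higher, and lymphoma array 1 stood far above the other 3 arrays. The log2 difference was 0.87 (SE 0.37, adjusted p = 0.346 in limma) and was not called. It was 1.46 without lymphoma array 2 and 0.28 without the other. Il13, from the same array, was not high there. Its value of 137 on lymphoma array 1 lay between the wild type values.

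**Figure D3:**
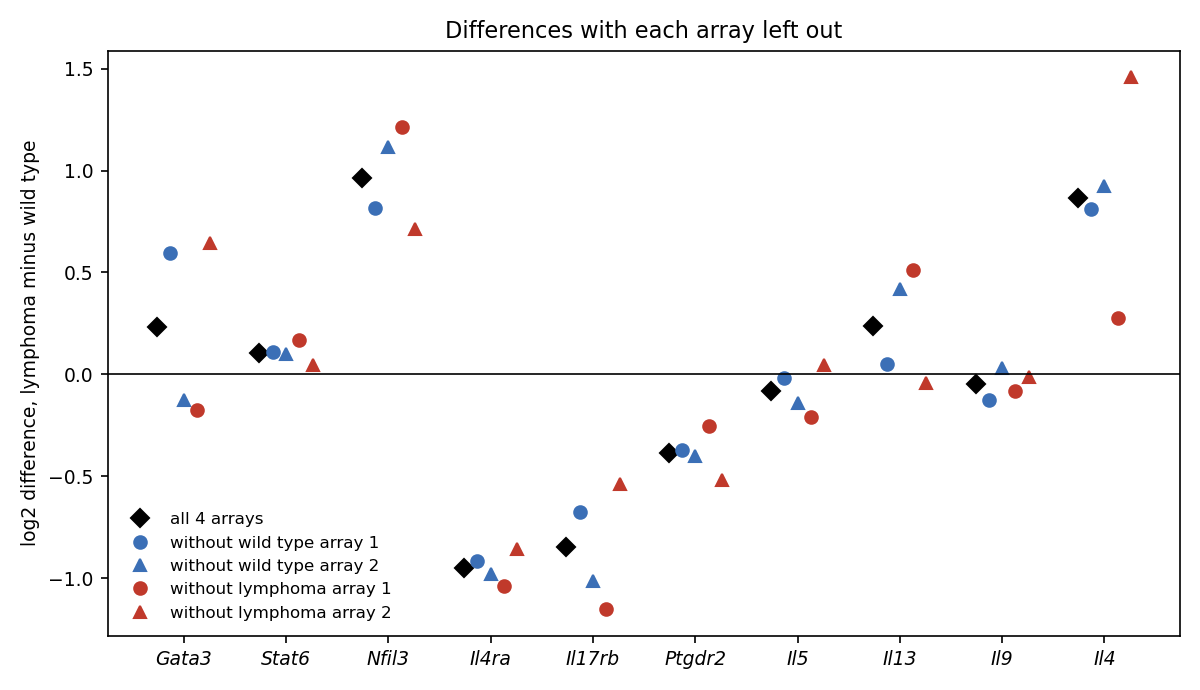
Log2 difference of each gene with all 4 arrays (black diamonds) and with each array left out (blue for a wild type array, red for a lymphoma array). Il4ra stays between -1.04 and -0.86, Gata3 lies on both sides of 0, and Il4 moves from 1.46 without lymphoma array 2 to 0.28 without lymphoma array 1.

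The pathway around these genes was read from a list of 95 further genes, of which 90 were measured. The list was drawn up with earlier results of these data known, so its shares of calls are a description and not a test. Of these, 5 were called higher (5.56% against 1.82% of all genes), 12 were called lower (13.3% against 2.46%) and 73 were not called. The groups did not overlap for 48 (53.3% against 44.1%), and the median log2 difference was -0.12. Of the measured genes, 5 also stand on marker lists of cells other than CD4+ T cells (Ccr3, Il5ra, Eomes, Il7r and Il18r1), and without them 5 of 85 were called higher and 10 lower. The 10 still include Spi1, Csf2rb and Il17ra, which myeloid cells also make, so they are not free of genes of other cells. With either wild type array left out no gene on the array was called, and with either lymphoma array left out more genes were called than with all 4. With all probe sets tested 3 pathway genes were called higher and 5 lower. The calls lost in that setting were those of Bhlhe40 (adjusted p = 0.0641), Maf (0.0819), Csf2rb (0.092), Csf2rb2 (0.0703), Il17ra (0.0562), Hpgds (0.0575), Notch2 (0.0901), Lef1 (0.0765) and Itgb3 (0.0625).

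Among the chains that pair with or resemble the receptors above, 16 were measured. Of these 4 were called lower (25% against 2.46% of all genes) and 1 higher (6.25% against 1.82%). Il5ra, the ligand-binding chain for interleukin 5, had 205 and 133 in wild type and 39.0 and 41.8 in lymphoma, a log2 difference of -2.03 (SE 0.24, adjusted p = 0.0103 in limma). Its signalling partner Csf2rb, shared with the receptors for interleukin 3 and GM-CSF, fell by 1.83 on the log2 scale (adjusted p = 0.0356), or had -1.37 with wild type array 1 left out and -2.30 with array 2 left out, neither called. Csf2rb2, a closely related mouse copy whose probes may share sequence with it, fell by 1.75 (0.0245), and the 2 values are therefore uncertain as separate measurements. Il17ra, the partner of Il17rb, chosen for mention after its values were seen, fell from 1422 and 1201 to 535 and 584, a log2 difference of -1.23 (adjusted p = 0.0211).

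Il5ra and Ccr3 are also eosinophil markers. They were the only called genes of 7 measured on that list (28.6% called lower against 2.46% of all genes). The summed intensity of the list was 1100 and 1087 in wild type and 541 and 580 in lymphoma. Of the 7 differences 6 were negative and 1 was positive, with a median of -0.30. The positive 1 was that of the eosinophil granule gene Epx, with 50.4 and 54.3 in wild type and 54.9 and 63.5 in lymphoma. Prg2 had 155 and 101 against 87.7 and 88.1, and neither gene was called. Csf2rb and Il17ra are also made by myeloid cells. Most macrophage and dendritic cell markers fell as given above and most neutrophil markers did not. The part of such cells in these differences was not tested.

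In contrast to Il4ra, its partner for binding interleukin 13, Il13ra1, was not lower: it had 489 and 322 in wild type and 889 and 793 in lymphoma. The lymphoma arrays lay above both wild type arrays, with a log2 difference of 1.08 (SE 0.25, adjusted p = 0.0761 in limma) that was not called. It was called without lymphoma array 1 (1.00, adjusted p = 0.0324) and without lymphoma array 2 (1.16, 0.00944). Il9r, the receptor for interleukin 9, had 599 and 451 in wild type and 319 and 283 in lymphoma (-0.79, adjusted p = 0.12) and was not called. Il1rap, the signalling partner of the unmeasured Il1rl1, had 175 and 197 in wild type and 248 and 227 in lymphoma (0.35, adjusted p = 0.444), also not called. Il7r, the interleukin 7 receptor, had 4043 and 3922 in wild type and 4299 and 959 in lymphoma, so that 1 lymphoma array was low and the other was not. Its difference was -2.05 without lymphoma array 1 (adjusted p = 5.32e-06, a call) and 0.11 (0.933) without the other. Tnfrsf4, the costimulatory receptor also named OX40, rose by 1.73 (SE 0.22, adjusted p = 0.0115), from 1822 and 1628 to 4728 and 6867.

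**Figure D4:**
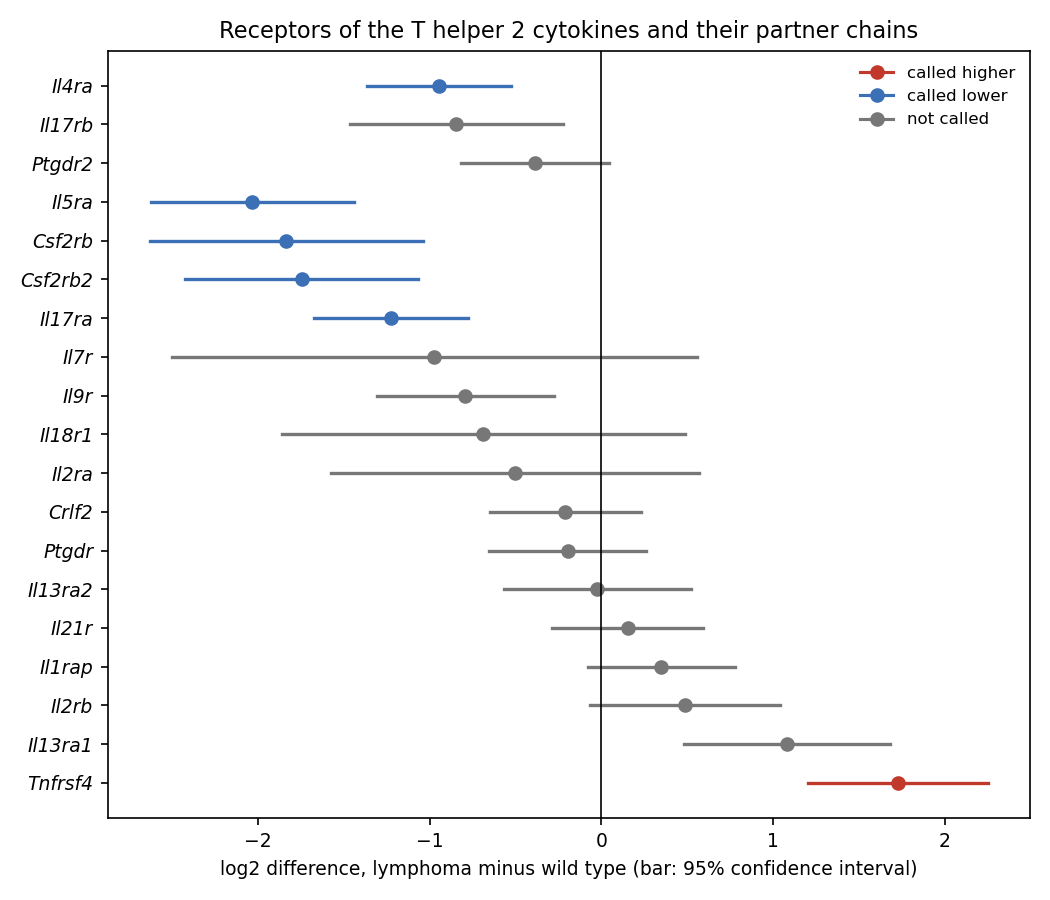
Log2 difference, lymphoma minus wild type, of Il4ra, Il17rb and Ptgdr2 (top) and of 16 further receptor chains ordered by their difference, with 95% confidence intervals from limma as bars. Il5ra, Csf2rb, Csf2rb2 and Il17ra are called lower, Il13ra1 lies above 0 without a call, and Tnfrsf4 is called higher.

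Of the transcription factors that work with Gata3 or shape T helper 2 fate, 23 were measured. Of these 3 were called higher (13% against 1.82% of all genes) and 2 lower (8.7% against 2.46%). Batf, an AP-1 factor that supports cytokine expression in several T helper types, had 584 and 507 in wild type and 2390 and 1899 in lymphoma, a rise of 1.97 on the log2 scale (SE 0.20, adjusted p = 0.00676 in limma). Bhlhe40, a basic helix-loop-helix factor induced by T cell activation, had 613 and 1146 in wild type and 3104 and 3570 in lymphoma, a rise of 1.99 (SE 0.31, adjusted p = 0.0221). The wild type arrays of Bhlhe40 differed from each other, and both lymphoma arrays lay above them. Maf, which activates Il4 and was chosen for mention after its values were seen, rose by 0.84 (adjusted p = 0.033), from 3379 and 3002 to 5757 and 5672, a call also lost with no variance trend (0.062). Spi1, a factor of myeloid and B cells that marks interleukin 9 producing T cells, fell by 2.67 (adjusted p = 0.00682), from 1461 and 1014 to 159 and 229. Notch2, also chosen after its values were seen, fell by 1.16 (adjusted p = 0.0386). The part of B cells and myeloid cells in the falls of Spi1 and Notch2 was not tested.

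Satb1, a chromatin organiser that folds the T helper 2 cytokine locus, had the largest difference of the pathway list in size but was not called. It had 2428 and 2742 in wild type and 777 and 109 in lymphoma, both far below wild type and far from each other. The log2 difference was -3.15 (SE 0.82, 95% confidence interval -5.14 to -1.16, adjusted p = 0.111 in limma). Leaving out lymphoma array 1 gave -4.56 and leaving out lymphoma array 2 gave -1.73. Rara, the retinoic acid receptor alpha, had 893 and 495 in wild type and 425 and 369 in lymphoma (-0.75, adjusted p = 0.304). Its difference was -0.32 with wild type array 1 left out and -1.17 with array 2 left out, neither called.

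Of 13 chemokine receptors and surface genes, 1 was called higher (7.69% against 1.82% of all genes) and 4 lower (30.8% against 2.46%). Their median was -0.90, and that of all genes was -0.04. Ccr8, a chemokine receptor of T helper 2 and regulatory T cells, had 371 and 412 in wild type and 2038 and 4308 in lymphoma. Its rise was 2.92 (SE 0.35, 7.58-fold, adjusted p = 0.0103 in limma). Ccr3, the eotaxin receptor, fell by 2.29 (adjusted p = 0.00558), from 349 and 465 to 75.1 and 89.9. S1pr1, a sphingosine phosphate receptor that lets T cells leave lymphoid organs, fell by 1.91 (adjusted p = 0.00558). Klf2, a factor that drives S1pr1, fell by 1.48 (0.0112). Itgb3, an integrin chain chosen for mention after its values were seen, fell by 1.24 (0.0229). These are values of bulk cells, in which most B cell, macrophage and dendritic cell markers fell. The part of such cells in the falls of Ccr3, S1pr1, Klf2 and Itgb3 was not tested. Ccr4, the other chemokine receptor used to mark T helper 2 cells, had 1116 and 752 in wild type and 325 and 697 in lymphoma and was not called, although it was without lymphoma array 2 (-1.50, adjusted p = 0.000881; -0.39 without the other). Cd200r1, an inhibitory receptor, had 232 and 225 against 62.8 and 179 and was not called, and was likewise called without lymphoma array 2 (-1.86, 2.28e-05; -0.35 without the other).

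Of 7 genes that make or carry inducing signals 1 was called lower (14.3% against 2.46% of all genes). This was Hpgds, the enzyme that makes prostaglandin D2 in blood cells. It had 198 and 287 in wild type and 82.4 and 67.2 in lymphoma (-1.68, SE 0.24, adjusted p = 0.0166 in limma). The part of cells other than T cells in this fall was not tested. Ptgs2, the inducible cyclooxygenase upstream of Hpgds, had 126 and 435 in wild type and 106 and 114 in lymphoma. Thus 1 wild type array was far above the rest, and the Ptgs2 difference of -1.09 was not called. With wild type array 1 left out it was -1.98, and with array 2 left out -0.20. Il33 and Il25, the ligands of Il1rl1 and Il17rb, had differences of -0.13 and -0.08 with overlapping groups. Tnfsf4, the ligand of Tnfrsf4, had 44.9 and 55.4 in wild type and 59.1 and 145 in lymphoma (0.89, adjusted p = 0.384), and was called without lymphoma array 1 (1.54, 0.000606; 0.24 without the other).

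Of 12 kinases, cytokine signal suppressors and phosphatases, none was called by limma, and 4 had an unadjusted p under 0.05. Socs2, a suppressor induced by STAT5, had 683 and 316 in wild type and 591 and 55.0 in lymphoma, low on lymphoma array 2 alone. Its difference was -3.08 without lymphoma array 1 (adjusted p = 4.27e-06, a call) and 0.35 (0.785) without the other. Ptpn11, a phosphatase, had a difference of 0.64 (adjusted p = 0.257 in limma), which was 0.33 without lymphoma array 1 and 0.95 without the other. Of 10 measured genes that oppose the T helper 2 program 1 was called, as lower (10% against 2.46% of all genes). This was Lef1, which fell by 1.30 (adjusted p = 0.0298 in limma) and was chosen for mention after its values were seen. Tbx21, the T helper 1 factor that counters Gata3, had 1034 and 644 in wild type and 793 and 192 in lymphoma and overlapped. It had -2.09 without lymphoma array 1 and -0.04 without the other. Eomes, a related factor, had 538 and 431 in wild type and 816 and 901 in lymphoma (0.83, adjusted p = 0.0848) and was not called, except without lymphoma array 1 (0.90, 0.0375).

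The 9 other cytokines measured were not called by limma (0 had an unadjusted p under 0.05), and in 4 of them (Il4, Il6, Il10 and Il21) 1 lymphoma array stood far from the other 3 arrays. Il6 had 10.8 and 18.2 in wild type, 12.4 on lymphoma array 1 and 183 on lymphoma array 2. Il10, an inhibitory cytokine of T helper 2 and regulatory cells, went the other way, with 166 and 310 in wild type, 989 on lymphoma array 1 and 202 on lymphoma array 2. Il21, a cytokine of follicular helper cells named after its values were seen, had 592 and 486 in wild type, 2596 on lymphoma array 1 and 315 on lymphoma array 2. Lymphoma array 1 was thus the high array for Il4, Il10 and Il21, and lymphoma array 2 for Il6. With groups of 2 such genes have wide intervals, from -0.98 to 4.52 for Il6 and from -0.76 to 2.72 for Il10. Without lymphoma array 1 Il6 was called (3.71, adjusted p = 4.32e-07), and without lymphoma array 2 Il10 was (2.13, 6.66e-05).

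**Figure D5:**
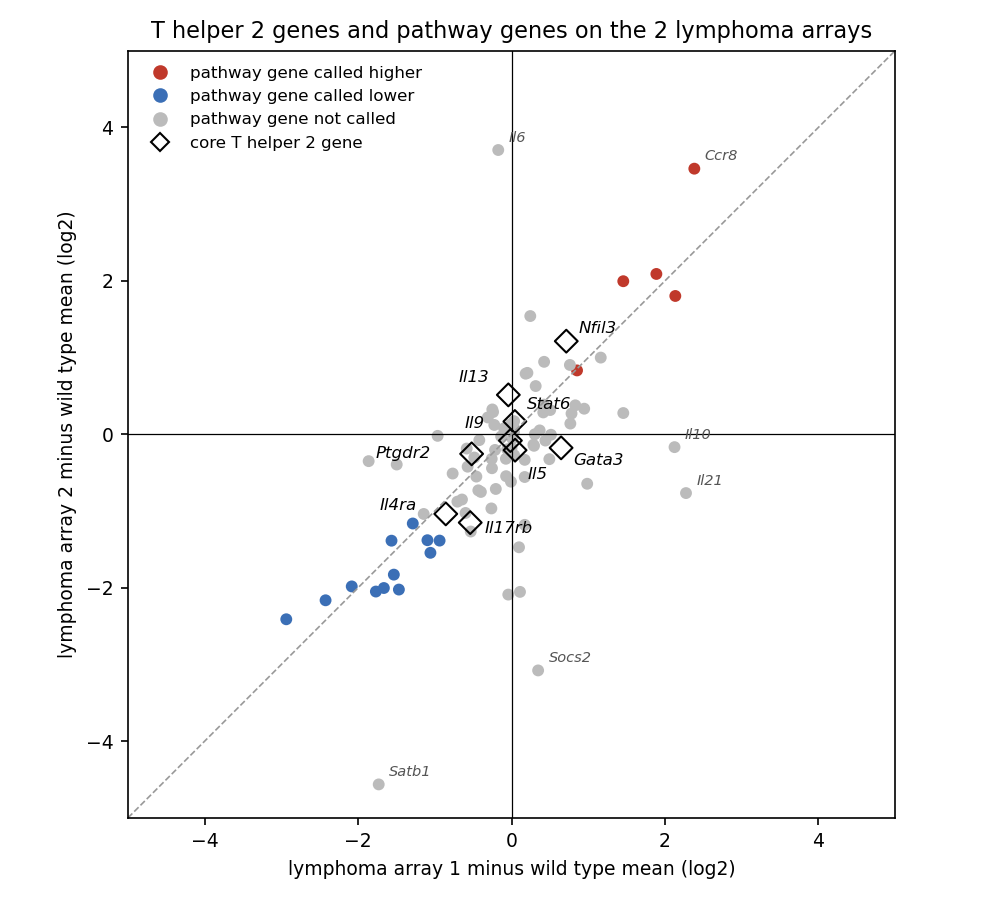
Log2 difference of each lymphoma array from the wild type mean, array 1 across and array 2 up, for 90 pathway genes (dots) and the 9 measured T helper 2 genes (diamonds), with a dashed line where both arrays are equal. Called genes lie near the dashed line, Il10 and Il21 lie far to the right of it, and Il6, Socs2 and Satb1 lie where array 2 differs from array 1.

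Il4, Il5 and Il13 share a stretch of mouse chromosome 11 with Rad50, Kif3a and other genes. Of 16 measured neighbours, Il4 included, none was called by limma (4 had an unadjusted p under 0.05), and the median log2 difference was 0.03. Rad50, a DNA repair gene that holds the locus control region, had 633 and 634 in wild type and 1000.2 and 673 in lymphoma (0.37, adjusted p = 0.574). Kif3a, a kinesin gene next to Il4, had 91.4 and 73.1 in wild type and 130 and 168 in lymphoma (0.85, adjusted p = 0.0993), and Septin8 190 and 165 against 333 and 278 (0.78, 0.0945). Csf2 and Il3, further along the chromosome, had differences of 0.02 and -0.25 with overlapping groups, and Irf1 had 0.03.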

How the data were processed

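RNA of 4 samples was measured on 1 array each. The deposited values are intensity per probe set on a linear scale, made by the authors with Affymetrix Expression Console, per the submitters' processing notes. Those notes name no summarisation, background correction, normalization or genome build, so probe sets have no position here. Of 35556 probe sets, 21789 carry 1 symbol, 1621 several and 12146 are not listed by the annotation. Of those with 1 symbol, 21698 matched a RefSeq gene and 0 symbols changed. The probe set with the highest mean was kept for 999 genes with several. Values were used on the log2 scale with no pseudocount and no filter. Groups were tested in limma 3.58.1 (R 4.3.3; lmFit, eBayes with a variance trend, 2 residual and a median of 4.24 prior degrees of freedom, median SE 0.20). The procedure was tested on simulated data. Fold is 2 to the power of the log2 difference, whichever group is higher.

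The members and lists were chosen with earlier results of these data known. Named genes are the 10 members, Il4, up to 12 called pathway genes by size, 2 not called per role, genes of the 2 loci, and up to 3 called genes of each other list. Il1rap, Il9r, Il17ra, Il25, Il33, Il21, Mcpt8, Cpa3, Epx, Prg2, Cd4, Foxp3 and the clock genes were added after their values were seen. Alternatives were quantile normalization, median subtraction, 2 filters on dim genes, no or a robust trend, averaged probe sets, all probe sets tested, a replicate block, array weights, a pseudocount of 16 and leaving out each array. Promoter windows are RefSeq's (GRCm38.p6). Figures were drawn with matplotlib 3.10.9.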

Additional observations from a re-analysis of the deposited data

How the results depend on the processing

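Over 11 alternatives that kept all 4 arrays, 444 of 457 differences of named genes kept their direction and side of the threshold, 11 lost a call and 2 changed sign, Il5 at 0.0197 and Il9 at 0.0508 with quantile normalization. With all probe sets tested, 0 of the 9 genes were called lower, and of the pathway genes 3 were called higher and 5 lower. In that setting the variance trend was refitted and the adjustment ran over 35556 probe sets. Genes at an unadjusted p under 0.05 in limma were 2814, against 3119 in the main fit. The parts of the refit and of the adjustment were not told apart. With 1 array left out, and its lone partner assumed to vary like the other group, 0 to 1 of the 9 genes were called higher and 0 to 2 lower, and 0 to 12 pathway genes higher and 0 to 20 lower. Without either wild type array limma called 0 of 19938 genes (2308 and 2049 at an unadjusted p under 0.05), and the cause was not tested. The differences that changed sign when an array was left out ranged from -0.18 to 0.65 for Gata3, -0.21 to 0.0465 for Il5, -0.0414 to 0.51 for Il13, -0.13 to 0.0313 for Il9, -0.17 to 3.71 for Il6, -0.17 to 2.13 for Il10, -2.05 to 0.11 for Il7r and -3.08 to 0.35 for Socs2. Array numbers are shared between the groups, and the deviations of same-numbered arrays correlated at 0.23, with only 2 pairs. With the replicate block, Il4ra had an adjusted p of 0.0454, Nfil3 0.0512, Il17rb 0.0538 and Gata3 0.523, with 0 of the 9 genes called higher and 1 lower. The number of arrays limits every value, and dim probe sets may understate differences.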

Other observations

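Nfil3 belongs to the family of factors that bind the D box of clock genes, and 14 genes of the circadian clock and that family were measured. None was called by limma and 1 had an unadjusted p under 0.05 (the 14 ranged from -0.35 to 0.79, median 0.23). Arntl, a core activator of the clock, had 388 and 356 in wild type and 530 and 686 in lymphoma (0.70, adjusted p = 0.15), and Dbp, an activator on the same D box, had 390 and 308 against 279 and 264 (-0.35, 0.502). Per1 had 793 and 1367 in wild type and 1596 and 1615 in lymphoma. The labels used here give no time of day.

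Il1rl1, which has no value, lies in a cluster of interleukin 1 receptor genes of which 7 genes were measured. Il1r2, a decoy receptor that binds interleukin 1 without signalling, was the called gene of the 7 (14.3% called higher against 1.82% of all genes). It had 503 and 517 in wild type and 3653 and 4879 in lymphoma, an 8.28-fold rise (log2 difference 3.05, SE 0.20, limma adjusted p = 0.00231). Leaving out a lymphoma array gave 2.84 or 3.26. Without wild type array 1 it was 3.03 and without wild type array 2 it was 3.07, and the call was lost in both. Its neighbour Il18r1, the interleukin 18 receptor, had 761 and 616 in wild type and 733 and 247 in lymphoma. Il1rl2 had 231 and 236 in wild type, 719 on lymphoma array 1 and 96.6 on lymphoma array 2. It was thus high with Il1r2 on lymphoma array 1 and not on lymphoma array 2. Il18r1 lay above both wild type values on neither lymphoma array.

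Other cell lists gave the following calls by limma. Their shares stand against 1.82% of all genes called higher and 2.46% called lower. Group 2 innate lymphoid cells share Gata3, Il1rl1 and Il17rb with T helper 2 cells. Of 11 of their genes 1 was called higher (9.09%), as Icos rose by 1.19. Called lower were 2 (18.2%), as Ccr9 fell by 2.75 and Hs3st1 fell by 1.20. Of 12 follicular helper genes all 12 had positive differences, with a median of 0.84. Of these 5 were called higher (41.7%), led by the inhibitory receptor Pdcd1 (1.65), Tox2 (1.20) and Icos, and none was called lower. Of 11 regulatory T cell genes 2 were called higher (18.2%), Ebi3 (1.65) and Tnfrsf18 (0.94). Called lower was 1 (9.09%), Gpr83, which fell by 1.83. Foxp3 had 1882 and 1809 in wild type, 1100 on lymphoma array 1 and 4345 on lymphoma array 2. Of 10 T helper 1 genes 2 were called higher (20%), Ccl3 (2.34) and Ccl4 (1.26). Called lower was 1 (10%), Il12rb2, which fell by 1.87. Of 5 T helper 17 genes none was called by limma (0 at an unadjusted p under 0.05). Of 9 natural killer genes 2 were called lower (22.2%), as Klri1 fell by 4.97 and Klri2 fell by 2.57. The differences of the 9 were positive for 4, up to 1.49 and none called, and negative for 5. Of 9 neutrophil genes 1 was called higher (11.1%), Ngp, which rose by 1.49. Of 9 T cell genes 1 was called lower (11.1%), Thy1, which fell by 1.56. Neither of 2 CD8 genes nor any of 5 erythroid genes was called by limma (2 and 0 at an unadjusted p under 0.05).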
